A study of Homo sapiens with 2 samples.

Results

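The genes described are 10 early response genes of the EGR, NR4A, IER and KLF groups: EGR1, EGR2, EGR3, NR4A1, NR4A3, IER2, IER5, IER5L, KLF6 and KLF10. They were taken from the count table by their symbols, and all 10 were found among its 19220 gene symbols. H9 is a long-established line from a human T cell lymphoma, labelled wild type in both conditions, and its polyadenylated RNA was sequenced from 1 library of cells given 0.05 µM doxorubicin for 6 h and 1 library of cells without exposure, labelled as 0 h. The drug, an anthracycline, holds topoisomerase II on cleaved DNA. The comparison asks how the level of these mRNAs in cells exposed to the drug differs from that in unexposed cells. The only unexposed library is labelled 0 h, so a difference due to the drug and one due to 6 h in culture cannot be told apart.

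Early response genes are switched on within minutes by growth factors, antigen receptor signals and many stresses, without new protein synthesis. Their induction runs largely through the ERK kinases, serum response factor, CREB and, in T cells, calcium-driven NFAT and MEF2 factors. Their mRNAs are often short lived, so their level follows transcription closely. EGR1, EGR2 and EGR3 are zinc finger factors, of which EGR2 and EGR3 restrain T cell activation. NR4A1 and NR4A3 are orphan nuclear receptors, and NR4A1 marks recent antigen receptor signalling in T cells. IER2, IER5 and IER5L form a family of nuclear proteins, and IER5 helps protein phosphatase 2A to activate the heat shock factor HSF1. KLF6 and KLF10 are Krüppel-like zinc finger factors that bind GC-rich DNA, and KLF10 is induced by TGF-beta.

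The promoter windows of 6 genes are shown first because the 3 IER genes carry the difference between the libraries and the others bear known early-gene elements. Each covers 300 bases, most of them upstream of the annotated start, and comes from RefSeq on GRCh38.p14, not the build of the counts. In EGR1 (chr5:138465229-138465528, plus strand) and in 1 of 3 start windows of EGR2 (chr10:62816317-62816616, minus strand), capitals mark CArG boxes, the core of the serum response element. In IER5 (chr1:181088450-181088749, plus strand) and IER5L (chr9:129178212-129178511, minus strand) they mark GAACATTC, which matches the heat shock element core GAANNTTC, and the inverted CCAAT boxes ATTGG. In IER2 (chr19:13150161-13150460, plus strand) they mark GC boxes, GGGCGG or CCGCCC, and in KLF6 (chr10:3785160-3785459, minus strand) the EGR site GCGNGGGCG and inverted CCAAT boxes.
EGR1: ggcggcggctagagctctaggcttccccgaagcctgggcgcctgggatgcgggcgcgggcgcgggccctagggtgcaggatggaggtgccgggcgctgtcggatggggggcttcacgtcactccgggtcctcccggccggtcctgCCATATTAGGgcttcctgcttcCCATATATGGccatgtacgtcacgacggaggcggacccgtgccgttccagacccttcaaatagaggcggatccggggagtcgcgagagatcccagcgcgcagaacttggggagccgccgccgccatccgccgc
EGR2: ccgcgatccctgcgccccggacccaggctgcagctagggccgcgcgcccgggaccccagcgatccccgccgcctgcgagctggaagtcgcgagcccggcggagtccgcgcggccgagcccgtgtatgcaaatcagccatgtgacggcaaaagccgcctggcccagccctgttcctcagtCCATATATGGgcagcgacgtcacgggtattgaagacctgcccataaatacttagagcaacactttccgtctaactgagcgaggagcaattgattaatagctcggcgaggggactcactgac
IER2: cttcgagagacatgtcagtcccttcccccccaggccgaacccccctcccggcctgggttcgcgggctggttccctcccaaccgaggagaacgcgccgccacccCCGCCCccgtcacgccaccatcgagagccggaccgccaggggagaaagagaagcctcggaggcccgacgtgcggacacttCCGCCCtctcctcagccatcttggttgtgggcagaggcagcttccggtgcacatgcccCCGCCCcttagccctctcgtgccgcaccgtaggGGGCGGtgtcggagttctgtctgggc
IER5: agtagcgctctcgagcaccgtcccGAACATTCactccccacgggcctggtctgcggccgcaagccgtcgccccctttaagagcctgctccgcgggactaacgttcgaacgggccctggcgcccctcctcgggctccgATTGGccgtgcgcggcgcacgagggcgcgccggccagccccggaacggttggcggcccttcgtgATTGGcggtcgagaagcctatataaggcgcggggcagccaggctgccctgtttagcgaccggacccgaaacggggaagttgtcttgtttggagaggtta
IER5L: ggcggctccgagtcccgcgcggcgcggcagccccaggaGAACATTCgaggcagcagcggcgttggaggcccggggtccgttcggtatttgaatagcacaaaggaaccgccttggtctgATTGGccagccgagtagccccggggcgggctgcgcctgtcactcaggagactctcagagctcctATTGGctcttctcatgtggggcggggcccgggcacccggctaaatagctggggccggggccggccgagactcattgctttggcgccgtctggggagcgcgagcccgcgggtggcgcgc
KLF6: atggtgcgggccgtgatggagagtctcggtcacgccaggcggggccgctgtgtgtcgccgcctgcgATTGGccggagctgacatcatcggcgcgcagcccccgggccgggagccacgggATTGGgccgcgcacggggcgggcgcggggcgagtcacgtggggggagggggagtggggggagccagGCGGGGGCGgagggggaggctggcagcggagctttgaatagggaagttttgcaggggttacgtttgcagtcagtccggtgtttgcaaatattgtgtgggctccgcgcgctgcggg

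RefSeq promoter windows were matched for 8 of the 10 genes, 11 windows in all. Each motif was searched on both strands, and the core TGACG lies within the full cyclic AMP response element TGACGTCA. CArG boxes were found in EGR1, beginning 105 and 83 bases before the start, and in EGR2, beginning 71 bases before it, which makes 2 of the 11 windows, and 1.29% of all 35116 windows hold one. The core TGACG was found in EGR1, EGR2, NR4A3 and IER2, in 4 of the 11 windows with 4 copies in that of NR4A3, and 24.6% of all windows hold it. The full element TGACGTCA, held by 1.85% of windows, was in 0 of the 11. GC boxes were in 7 of the 11 windows, and 45.0% of all windows hold one. EGR sites were in EGR1, EGR2 and KLF6, 3 of the 11 windows, against 9.43% of all windows. The heat shock element core was found in IER5 and IER5L, 2 of the 11 windows, against 6.77% of all windows, and both carried the same letters, GAACATTC, which 0.834% of windows hold. These 2 genes and KLF6 were also those with a CCAAT box, 2 copies in each, and 34.6% of all windows hold one. The NGFI-B response element AAAGGTCA, to which NR4A proteins bind, is held by 1.22% of windows, the ETS site CCGGAAGT by 4.14%, the TATA box TATAAA by 11.5% and the p53 decamer by 6.63%, and each was in 0 of the 11. The NGFI-B, ETS and TATA elements were searched as these exact letters only, so variants such as TATATAAG in the IER5 window were not counted. A match describes letters in the window and does not show that a factor binds there.

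The libraries held 50174434 counts with doxorubicin and 33730703 untreated, a depth ratio of 1.49, and counts were scaled by TMM. Each condition has 1 library, so there is no test, no p-value and no replicate error. Each ratio is given with a 95% Clopper-Pearson interval, which covers counting error only, since reads counted without molecular identifiers are not independent molecules. A gene was measured if both libraries together gave at least 100 counts, and measured genes numbered 11244. It was called higher or lower if the ratio reached 1.5-fold and the interval excluded 1. The label T lymphocyte fitted the counts of CD3E, a T cell receptor subunit (8864 with doxorubicin and 7149 untreated), and CD4 (1387 with doxorubicin and 768 untreated). CD3G, another subunit of the CD3 complex, was higher, with 3134 counts with doxorubicin and 931 untreated, a log2 ratio of 1.11. CD3D, also of that complex, was at -0.58 (-0.63 to -0.53) from 7431 counts with doxorubicin and 7122 untreated. The T cell genes CD2 (2 counts with doxorubicin and 0 untreated) and CD7 (8 counts in each) were nearly absent. The table held 9 T cell markers, of which 7 were measured, and their summed level, in scaled counts per 1000000 counts of the library (CPM), was 1131 with doxorubicin and 1128 untreated. Markers of other cells gave 150.2 CPM with doxorubicin and 205.7 untreated for 5 B cell genes, almost all from CD79A and CD79B. The 5 myeloid genes gave 2.76 CPM with doxorubicin and 1.79 untreated, and the 6 epithelial and fibroblast genes gave 69.9 CPM with doxorubicin and 84.5 untreated, most of it from EPCAM and the next most from COL1A1 (317 counts with doxorubicin and 172 untreated). CD68, a myeloid gene whose exons are all overlapped by other genes, was higher, with 127 counts with doxorubicin and 49 untreated, a log2 ratio of 0.72. Their part in the ratios was not tested. In bulk RNA, a change in the number of cells that express a gene and a change in its RNA per cell cannot be told apart.

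The 3 IER genes were lower with doxorubicin by 1.72-fold to 2.40-fold, and the other measured genes, EGR1, NR4A1, KLF6 and KLF10, were neither higher nor lower. Of the 10 genes 7 were measured, of which 0 were higher and 3 were lower. Among all measured genes 7.26% were higher and 9.57% were lower. With libraries scaled by their total counts instead, 1084 genes were higher and 852 lower, against 816 and 1076 under TMM, and the 3 IER genes were still lower. The median log2 ratio of the 7 was -0.31, and that of all measured genes was 0.0066. EGR2, EGR3 and NR4A3 were below the count minimum. NR4A3 had 8 counts with doxorubicin and 0 untreated. The plot of levels shows both libraries gene by gene.

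**Figure D1:**
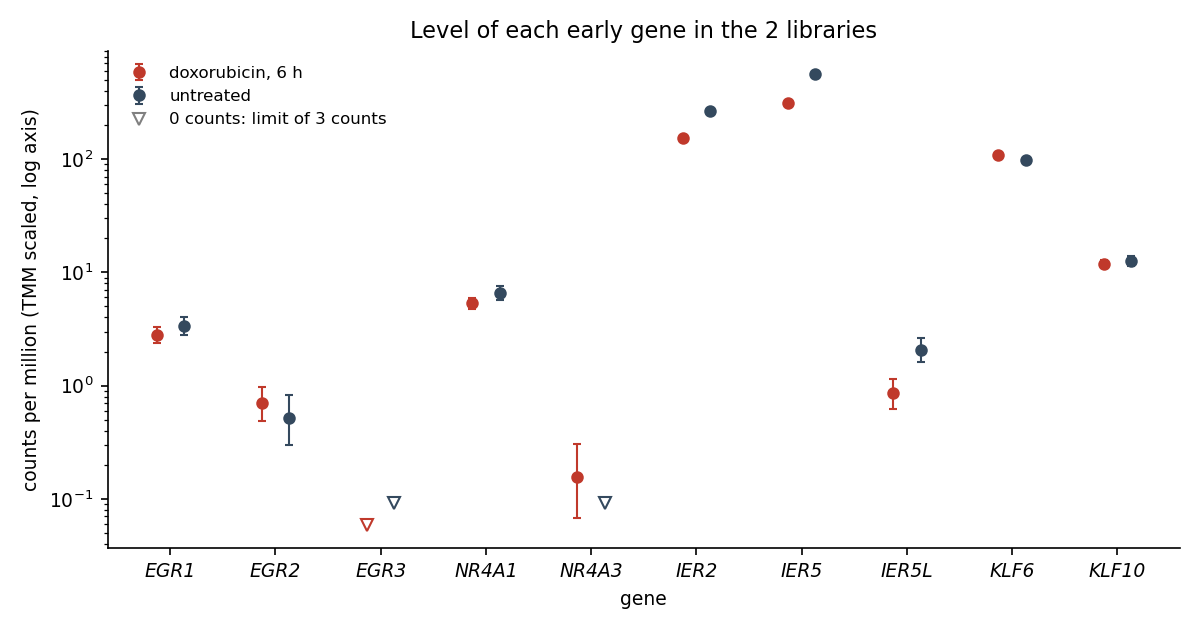
Level of each of the 10 genes on a log axis, in CPM after TMM scaling, with doxorubicin (red, left of each pair) and untreated (dark, right). Bars are 95% Poisson counting intervals, and open triangles mark the limit of 3 counts where a gene had 0. IER2 and IER5 lie lower with doxorubicin by more than their bars (154.3 against 264.7 and 313.8 against 564.7 CPM), while KLF10 and EGR1 overlap.

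IER5 had 16121 counts with doxorubicin and 18605 untreated, so it received fewer reads in the deeper library. Scaled, that was 313.8 CPM with doxorubicin (309.0 to 318.7) and 564.7 untreated (556.6 to 572.9). The ratio was 1.80-fold lower (1.76 to 1.84), and 3.38% of measured genes had a lower ratio. IER2 had 7924 counts with doxorubicin and 8722 untreated, or 154.3 CPM (150.9 to 157.7) and 264.7 CPM (259.2 to 270.4). It was 1.72-fold lower (1.67 to 1.77), and 4.65% of measured genes had a lower ratio. The small gene of the family, IER5L, had 44 counts with doxorubicin and 68 untreated, or 0.857 CPM (0.622 to 1.15) and 2.06 CPM (1.60 to 2.62). Its ratio was 2.40-fold lower, with a wide interval from 1.63 to 3.61 that holds the ratios of both relatives. IER5L lay just above the count minimum with 44 and 68 counts. Within a library, where no scaling enters, IER5 had 2.03 counts for each count of IER2 with doxorubicin and 2.13 untreated, so the pair kept nearly the same proportion of counts. With log2 ratios adjusted for length and GC content, as below, IER5 (-1.01, -1.04 to -0.98) and IER2 (-0.49, -0.53 to -0.44) lay apart. These intervals hold no error of the adjustment itself.

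Reads from IER2 and IER5L may include those of other genes. In the GENCODE annotation 45.4% of the exon bases of IER2 and 39.2% of those of IER5L are overlapped by non-coding genes on the opposite strand, against 0% for IER5. NR4A1 has 21.4% overlapped in the same way, and EGR3 has 3.78%. The other members have 0%. The sources used here do not give the strand setting of the counting, so reads of such antisense partners cannot be told apart from those of the gene. No exon base of the 10 genes is overlapped by another protein-coding gene.

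The 2 KLF genes stood apart from the IER genes. KLF6 had 5615 counts with doxorubicin and 3211 untreated, or 109.3 CPM (106.5 to 112.2) and 97.5 CPM (94.1 to 100.9). Its log2 ratio was 0.17 (0.10 to 0.23), a 1.12-fold difference that did not reach the size rule, and 34.2% of measured genes had a higher ratio. KLF10 had 609 counts with doxorubicin and 416 untreated, or 11.9 CPM (10.9 to 12.8) and 12.6 CPM (11.4 to 13.9). Its log2 ratio of -0.09 had an interval from -0.27 to 0.09, which holds no difference and reaches a 1.21-fold decrease. Within a library, IER5 had 2.87 counts for each count of KLF6 with doxorubicin and 5.79 untreated. The IER genes together made up 78.3% of the counts of the 10 genes with doxorubicin and 87.3% untreated, and the KLF genes 20.2% with doxorubicin and 11.6% untreated.

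The EGR and NR4A genes were sparsely expressed in both libraries. EGR1 had 144 counts with doxorubicin and 111 untreated, or 2.80 CPM (2.36 to 3.30) and 3.37 CPM (2.77 to 4.06). Its log2 ratio was -0.27 (-0.63 to 0.11), and this interval holds both no difference and a 1.5-fold decrease. NR4A1 had 273 counts with doxorubicin and 217 untreated, or 5.31 CPM (4.70 to 5.98) and 6.59 CPM (5.74 to 7.52). Its log2 ratio of -0.31 (-0.57 to -0.05) lay below 0 but short of the size rule. Within a library, NR4A1 had 1.90 counts for each count of EGR1 with doxorubicin and 1.96 untreated.

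EGR2 had 36 counts with doxorubicin and 17 untreated, a log2 ratio of 0.42 with an interval from -0.43 to 1.37. NR4A3, with 8 counts with doxorubicin and 0 untreated, gave a ratio of 1.71-fold when the untreated library is set at its floor of 3 counts, or 0.0911 CPM. The counting interval of its log2 ratio begins at 0.13, close to no difference. Its level with doxorubicin was 0.156 CPM (0.0672 to 0.307). EGR3 had 0 counts with doxorubicin and 0 untreated, and 3 counts, the limit that 0 allows, would be 0.0584 CPM with doxorubicin and 0.0911 CPM untreated. EGR3, a gene that activated T cells express, was not detectable at this depth in either library.

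Compared per length, as CPM per kilobase of transcript, the order of levels ran over more than 2 orders of magnitude. With doxorubicin IER5 stood at 74.9 (73.8 to 76.1) and IER2 at 74.0 (72.4 to 75.6), whose intervals overlap. Untreated, IER5 stood at 134.8 (132.9 to 136.8) and IER2 at 127.0 (124.3 to 129.7), whose intervals do not. KLF6 followed at 23.5 with doxorubicin and 20.9 untreated, and KLF10 at 3.24 with doxorubicin and 3.45 untreated. NR4A1 was at 1.51 with doxorubicin and 1.88 untreated, and EGR1 at 0.893 (0.753 to 1.05) with doxorubicin and 1.07 (0.883 to 1.29) untreated. IER5L was at 0.316 (0.230 to 0.424) with doxorubicin and 0.761 (0.591 to 0.965) untreated. Its interval overlapped that of EGR2, 0.236 (0.165 to 0.327), with doxorubicin, and that of EGR1 in the untreated library. EGR2 was at 0.174 untreated, and NR4A3 came last at 0.0273 with doxorubicin. IER5 lay above 93.5% of detected genes with doxorubicin and 96.0% untreated on this scale, and KLF6 above 76.5% with doxorubicin and 73.1% untreated. These levels depend on the annotated transcript chosen for each gene.

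**Figure D2:**
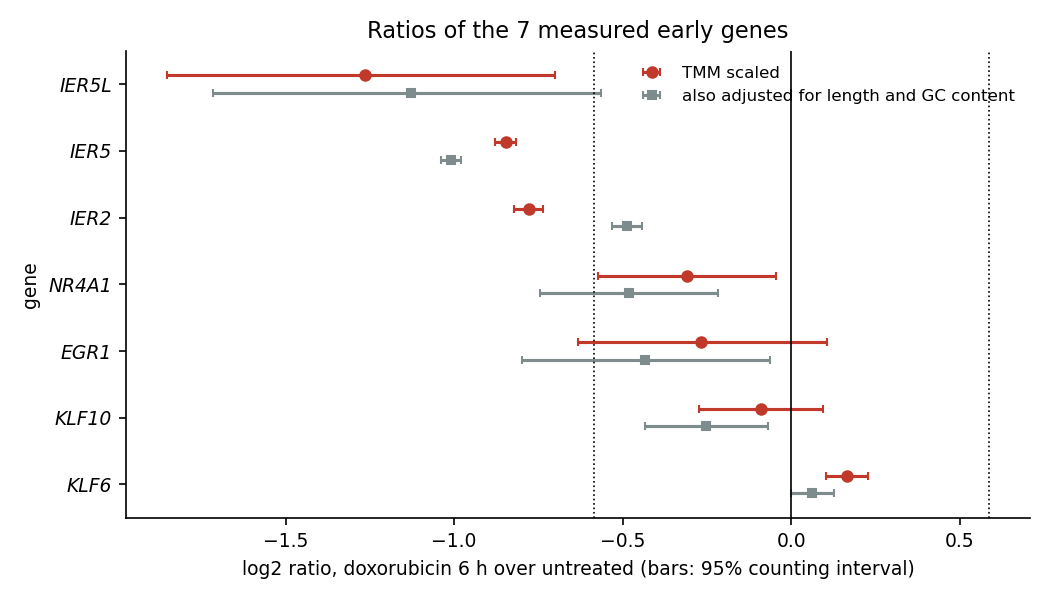
Log2 ratio of doxorubicin over untreated for the 7 measured genes, after TMM scaling (red circles) and after a further adjustment for GC content and for transcript and coding length (grey squares), with 95% counting intervals. The grey intervals are the red ones shifted with the ratio and hold no error of the adjustment. Dotted lines mark 1.5-fold. IER5L, IER5 and IER2 lie left of the lower line before adjustment (-1.26, -0.85 and -0.78), and IER2 lies right of it after adjustment (-0.49).

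Ratios in these libraries went with transcript length across the table, and the 7 measured genes were set against that trend. Among the 2240 measured genes with the shortest transcripts the median log2 ratio was -0.39, and among the 2240 with the longest it was 0.28. IER5, with a transcript of 4188 bases, fell in the fourth of 5 length groups, where the median was 0.14 and 2.46% of genes were lower. IER2 (2085 bases) and IER5L (2711 bases) fell in the second group, with a median of -0.12 and 8.71% lower. EGR1, NR4A1 and KLF10 were in the third, with a median of 0.03, and KLF6 was in the fourth.

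When ratios were adjusted for GC content and for transcript and coding length over 11181 genes, IER5 stood at -1.01 (-1.04 to -0.98) on the log2 scale and IER5L at -1.13 (-1.71 to -0.56), both still lower. IER2 was at -0.49 (-0.53 to -0.44), no longer past the size rule. The IER2 transcript has 62.9% GC and that of IER5L 65.0%. NR4A1 was at -0.48 (-0.74 to -0.22) and EGR1 at -0.43 (-0.80 to -0.06), so each interval lay below 0 while the ratio stayed short of 1.5-fold. Adjusted intervals are the counting intervals shifted with the ratio, and they hold no error of the fit. KLF10 was at -0.25 (-0.44 to -0.07). KLF6 was at 0.06, with an interval reaching just below 0. The adjusted median of the 7 was -0.48, with 0 higher and 2 lower, against 4.02% of all adjusted genes higher and 3.85% lower.

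**Figure D3:**
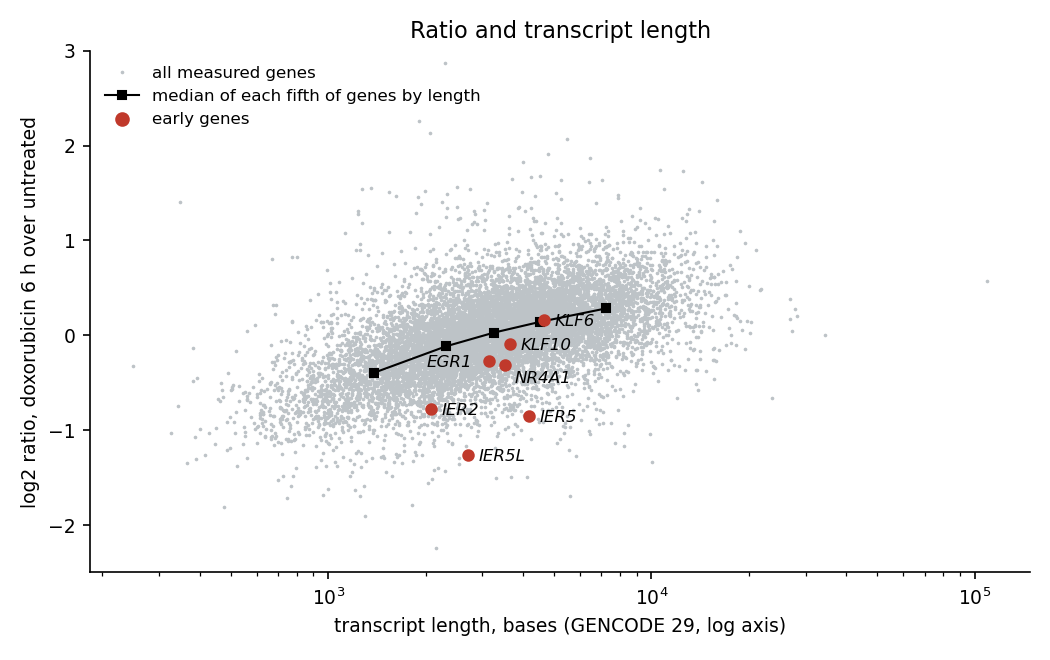
Log2 ratio of doxorubicin over untreated against transcript length on a log axis, for all measured genes (grey) and the 7 early genes (red), with the median of each of 5 groups of genes by length (black squares). The medians are -0.39 for the shortest group and 0.28 for the longest, and IER5 (-0.85 at 4188 bases) lies below the median of its own group, 0.14.

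The 10 genes differed in structure, which their choice by symbol did not use. Most gene bodies are compact: EGR1, EGR3, IER2, IER5, IER5L, KLF6 and KLF10 span 2711 to 9286 bases, against a median of 31631 among measured genes. NR4A1 spans 36676 bases, NR4A3 45037 and EGR2 107905, all above that median. These spans cover every annotated transcript of a gene. The EGR2 transcript used here for length and exons has only 2968 bases. IER5 and IER5L have 1 exon, the EGR genes and IER2 have 2, the KLF genes 4, NR4A1 8 and NR4A3 9. Of the 223 measured genes with 1 exon 4.93% were higher and 21.1% were lower, with a median log2 ratio of -0.26. IER5 and IER5L, at -0.85 and -1.26, were both among those lower. AU-rich elements, which shorten the life of an mRNA, are built from the pentamer ATTTA. The annotated 3' untranslated region held 10 pentamers in NR4A3 and in IER5, 6 in KLF6, 3 in EGR3, NR4A1, IER5L and KLF10, 2 in EGR2, 1 in EGR1 and 0 in IER2. Among 11135 measured genes with such a region, 71.4% held at least 1 pentamer and 13.4% at least 10.

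In that region IER5 alone among the 10 held the nonamer TTATTTATT, in 3 overlapping copies, and 8.93% of measured genes with such a region hold it there at least once. The median log2 ratio of those genes was 0.09. The copies lie 2567 to 2583 bases after the stop codon on chromosome 1. The stretch is shown with 6 bases on each side because no other of the 10 holds the nonamer in its annotated 3' untranslated region. Capitals mark the overlapping nonamers, and the letters are from GENCODE release 29 on GRCh38.
IER5: cttcctTTATTTATTTATTTATTtaatta

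Among relatives and namesakes outside the 10, the other EGR, NR4A and IER genes and the other KLF genes gave 0 calls at the count minimum, and the related SP genes gave 1. IER3 had 3981 counts with doxorubicin and 3405 untreated, a log2 ratio of -0.42 (-0.48 to -0.35), and WT1, whose zinc fingers resemble those of the EGR factors, was at -0.14 (-0.20 to -0.07). IER3 has 28.9% of its exon bases overlapped by an antisense gene and was at -0.01 after adjustment. EGR4 had 20 counts with doxorubicin and 4 untreated, and NR4A2 had 55 with doxorubicin and 36 untreated, both genes below the count minimum. With a minimum of 20 counts EGR4 would count as higher, at a log2 ratio of 1.55 with an interval from 0.10 to 3.69. The table held 15 other KLF genes, of which 8 were measured, with 0 higher, 0 lower and a median of 0.24. KLF13, the one with the most counts, was at 0.50 (0.46 to 0.55) from 11408 counts with doxorubicin and 5162 untreated. KLF16 was at -0.13 (-0.21 to -0.04) from 2738 counts with doxorubicin and 1918 untreated. KLF2, which keeps T cells quiescent, had 50 counts with doxorubicin and 46 untreated, below the count minimum. Of 6 measured SP genes 1 was lower, SP9, at -0.94 (-1.23 to -0.65) from 183 counts with doxorubicin and 225 untreated, with 63.7% of its exon bases overlapped by another gene. By the same rule 7.26% of all measured genes were higher and 9.57% lower.

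Early genes of other families mostly had negative ratios too, 19 of the 27 measured. Of these 27, 0 were higher and 7 were lower, and among all measured genes 9.57% were lower. The 27 had a median log2 ratio of -0.28, close to the -0.31 of the EGR, NR4A, IER and KLF genes, both unadjusted. Once ratios were adjusted, the -0.31 became -0.48, while the middle ratio of the 27 became less negative, so the lists moved apart. JUND, an AP-1 subunit, had 3512 counts with doxorubicin and 5395 untreated, a log2 ratio of -1.26 (-1.32 to -1.20). ID2, an inhibitor of basic helix-loop-helix factors, had 151 counts with doxorubicin and 237 untreated, a log2 ratio of -1.29 (-1.60 to -0.99). The other 5, named after their values were seen, were FOS at -0.79, DUSP2 at -0.72, DUSP6 at -0.65, ID3 at -0.65 and JUNB at -0.60. DUSP6 has 37.3% of its exon bases overlapped by an antisense gene, and JUNB 14.2% by a protein-coding gene. After adjustment for length and GC content ID2, DUSP6, FOS and JUND were still lower, at -0.83, -0.83, -0.79 and -0.79. By the same rule 3.85% of all adjusted genes were lower. Under total-count scaling 4 of the 27 were lower, and so were 7.58% of all measured genes.

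Genes that carry signals to the early genes did not share one direction. Medians of the serum response factor, ERK, CREB and NFAT lists are given before adjustment for length and GC content. Each was lower after it. To set beside the calls of these lists, 7.26% of all measured genes were higher and 9.57% lower. After adjustment these shares were 4.02% and 3.85%. Serum response factor, its ternary complex partners and the myocardin-related coactivators had a median of 0.18 over 7 measured genes, with 1 higher and 0 lower. MKL2, a coactivator of serum response factor, had 1117 counts with doxorubicin and 362 untreated, a log2 ratio of 0.98 (0.81 to 1.16), and 0.62 after adjustment. In the ERK cascade 2 of 19 genes were higher and 2 were lower, with a median of 0.16. KSR1, a scaffold of the cascade, was at 1.14 (1.01 to 1.27) from 2289 counts with doxorubicin and 667 untreated, with 15.0% of its exon bases overlapped by other genes. ARAF, a kinase of the RAF family, was at 0.60 (0.52 to 0.68). HRAS was at -1.02 (-1.15 to -0.89) from 848 counts with doxorubicin and 1104 untreated. MAP2K2, which encodes MEK2, was at -0.64 (-0.69 to -0.60) and shares 14.7% of its sampled sequence with other genes. Only KSR1 of these 4 was past the size rule after adjustment, at 0.73.

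The list of CREB and its coactivators had 2 of 8 genes higher, 0 lower and a median of 0.21. They were the acetyltransferases EP300, at 0.88 (0.80 to 0.95), and CREBBP, at 0.79 (0.70 to 0.87), and their adjusted values of 0.29 and 0.20 were below the size rule. Among NFAT, MEF2 and calcineurin genes 1 of 15 was higher and 0 were lower, with a median of 0.06. That gene was NFATC2, which drives EGR2 and EGR3 in stimulated T cells, with 4311 counts with doxorubicin and 1573 untreated. Its log2 ratio was 0.81 (0.73 to 0.90), and 0.39 after adjustment. Before adjustment 7.26% of all measured genes were higher and 9.57% lower.

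**Figure D4:**
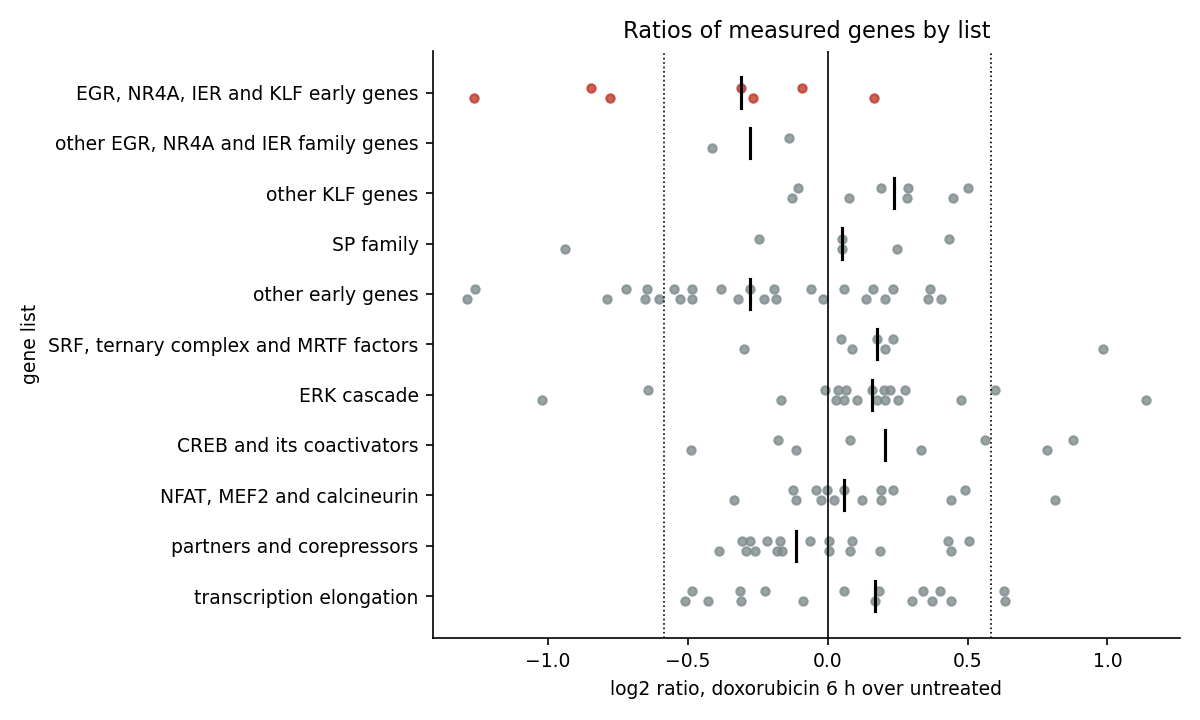
Log2 ratio of doxorubicin over untreated for the measured genes of each list, one dot per gene, with the list's median as a black bar and 1.5-fold as dotted lines. The EGR, NR4A, IER and KLF genes (red, median -0.31) and the other early genes (median -0.28) lie mostly left of 0, and the serum response factor, ERK and CREB lists have medians of 0.18, 0.16 and 0.21. All ratios shown are before adjustment for length and GC content.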

How the data were processed

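The deposited table holds raw read counts per gene symbol, 1 column per library, neither scaled nor corrected for length by the authors. HISAT2, featureCounts and the build hg19 are named in the submitters' processing notes. The sources used here give no versions, annotation or strand setting. Libraries were scaled by TMM in edgeR 4.0.16 (R 4.3.3). Log2 ratios were taken after adding 0.5 to each count, with Clopper-Pearson intervals from SciPy 1.17.1, and levels have Poisson intervals. The size rule was 1.5-fold with an interval excluding 1, among genes with at least 100 counts. Lengths, exons and overlaps came from GENCODE release 29, on another assembly than hg19, matched by symbol or synonym for 11199 of 11244 measured genes. Splines with 4 degrees of freedom per term, or lowess of span 0.3, gave the adjusted ratios. Their intervals are the counting intervals shifted by the same amount, without error of the fit. Shared sequence was counted over 50-base stretches taken every 25 bases. The 10 genes, the lists and the adjustment were chosen with earlier results of these data known. The length groups and the 1-exon genes were added after the values were seen. All 10 genes are named, and from each list up to 2 genes highest and 2 lowest past the size rule, or the 2 with the most counts where none passed. The other genes named were chosen after their values were seen. A comparison of protein sequences was planned and not made, because no protein sequences were used here.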

Additional observations from a re-analysis of the deposited data

How the results depend on the processing

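In all, 12 alternatives were run: DESeq2 1.42.0 size factors, total-count and upper-quartile scaling, 3 other count minimums, 2 other size limits, a 99% interval, an added count of 5 and 2 adjustments for length. The count of early genes higher stayed at 0 except without a count minimum, where it was 1 (NR4A3). The count lower was 3, except 1 under a 2-fold limit (IER5L) and 2 with a minimum of 500 counts or after the full adjustment, for GC content and both lengths. The median log2 ratio ranged from -0.48 to -0.24. IER5L was lower under 11 of 11 alternatives that kept it, IER5 under 11 of 12 and IER2 under 10 of 12. The exceptions were the 2-fold limit for both and the full adjustment for IER2. Several alternatives could not change such a call. The other count minimums leave a kept gene's ratio and interval as they were, and the looser size limit cannot undo a call. DESeq2 and upper-quartile scaling moved log2 ratios by only 0.0016 and -0.0042. KLF6 lay between 0.0014 and 0.23, the low end after adjustment for transcript length and the high end under total-count scaling. KLF10 lay between -0.25 and -0.02, and EGR1 between -0.43 and -0.20. Total-count scaling moved the median of all measured genes by 0.07, and 56.0% of calls were then higher, against 43.1% under TMM. Depth limits IER5L, EGR1 and the 3 genes under the minimum, and intervals cover counting error only. No paired analysis was possible because each condition has 1 library.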

Other observations

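Further gene lists bear on how early genes act and are transcribed. Of 18 measured partners and corepressors of these factors, among them NAB1, NAB2, the RXR receptors, HSF1 and subunits of protein phosphatase 2A, 0 were higher and 0 lower, with a median log2 ratio of -0.11. HDAC1, a deacetylase, was at 0.0055 (-0.03 to 0.04) from 15830 counts with doxorubicin and 10114 untreated, and HDAC2 was at -0.16 (-0.20 to -0.12). Under the length and GC adjustment 2 of the 18 were lower, PPP2R2D at -0.61 and SMAD7 at -0.59, both named after their values were seen. Of 17 genes that hold, release or carry on paused polymerase, such as the NELF subunits and CDK9, 2 were higher and 0 lower, with a median of 0.17. SUPT6H, a histone chaperone that travels with the polymerase, was at 0.63 (0.59 to 0.68), and AFF1, a scaffold of the super elongation complex, was at 0.63 (0.52 to 0.74). After adjustment these were at 0.15 and 0.23, and 0 of the 17 were past the size rule. Before adjustment 7.26% of all measured genes were higher and 9.57% lower. Of all adjusted genes 4.02% were higher and 3.85% lower.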
